A study of Mus musculus with 18 samples.

Results

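The H3K79me2 landscape of naive CD4 T cells was described from the 3 broad peak lists of naive cells, out of 18 samples in the series. The series, on DOT1L in T helper cells, also holds 3 H3K79me2 libraries of Th1 and 3 of Th2 cells and 9 inputs, none of which was used here. Naive cells came from the spleens of WT mice and were sorted as naive cells by surface markers, CD44- among them, with no culture. For each library 1500000 cells were fixed for 10 min in 0.6% formaldehyde, and 2 µg of antibody was used. The strain and age of the mice are not given in the sources used here. Nor is it stated whether the 3 libraries came from separate animals, so each SD below is that of 3 libraries and may be technical. Only these 3 lists, called list 1, 2 and 3 by their replicate number, entered the values below.

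DOT1L is the enzyme that methylates lysine 79 of histone H3, a residue on the surface of the nucleosome core and not on its tail. It is brought to genes with the machinery of transcription elongation, and H3K79me2 lies along the bodies of transcribed genes, usually from just after the start. A naive CD4 T cell is a resting cell that has not met its antigen; it circulates through lymphoid organs, and its receptor, homing and quiescence genes are active while the cytokine genes of effector cells are not.

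Each base of the genome was taken as covered or not covered by a peak of a list, and the covered bases of each protein-coding gene were counted. A gene was called fully covered if every annotated base lay in peaks in all 3 lists, partly covered if more than 0 and less than 100% did in each list, and never covered if no base did in any. These classes describe the lists, and no test was made on them. Read depth was not in the lists and is unknown, so an uncovered base means that no peak was called there at that depth.

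The promoters of 6 genes show the ends of the range. Ankrd11 is the longest fully covered gene, Foxo1 encodes a forkhead factor that drives homing and survival genes of resting T cells, and Il7r encodes the receptor chain for the survival cytokine IL-7. All 3 genes and their promoters were covered at 100% in each list. Ifng, Il5 and Il13 encode effector cytokines, and both the genes and their promoters were at 0% in each list. The sequences are those of RefSeq on GRCm38.p6, the assembly of mm10, from 250 bases before the start to 50 bases after it, read 5′ to 3′ on the strand of the gene. Capitals mark CG dinucleotides and the letters TATAAA on either strand.
Ankrd11, chr8:123042235-123042534, minus strand: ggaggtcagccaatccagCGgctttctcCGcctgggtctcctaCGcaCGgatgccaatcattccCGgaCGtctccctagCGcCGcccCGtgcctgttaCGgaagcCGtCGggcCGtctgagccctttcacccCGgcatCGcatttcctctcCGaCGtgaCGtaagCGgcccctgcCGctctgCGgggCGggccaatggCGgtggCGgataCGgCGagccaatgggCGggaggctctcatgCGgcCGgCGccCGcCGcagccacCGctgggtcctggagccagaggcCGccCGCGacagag
Foxo1, chr3:52268087-52268386, plus strand: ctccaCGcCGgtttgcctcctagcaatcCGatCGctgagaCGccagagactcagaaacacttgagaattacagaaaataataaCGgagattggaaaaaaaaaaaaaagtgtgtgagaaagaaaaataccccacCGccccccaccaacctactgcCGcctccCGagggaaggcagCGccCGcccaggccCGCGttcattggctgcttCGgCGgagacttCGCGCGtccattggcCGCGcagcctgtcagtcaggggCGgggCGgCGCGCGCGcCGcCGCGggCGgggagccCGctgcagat
Il7r, chr15:9529827-9530126, minus strand: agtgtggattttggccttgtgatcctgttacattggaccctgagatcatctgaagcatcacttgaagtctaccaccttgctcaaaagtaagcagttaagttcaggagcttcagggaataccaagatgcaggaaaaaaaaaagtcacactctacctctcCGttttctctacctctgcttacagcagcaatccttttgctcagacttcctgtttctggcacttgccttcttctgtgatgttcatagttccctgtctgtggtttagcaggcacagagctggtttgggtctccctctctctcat
Ifng, chr10:118440796-118441095, plus strand: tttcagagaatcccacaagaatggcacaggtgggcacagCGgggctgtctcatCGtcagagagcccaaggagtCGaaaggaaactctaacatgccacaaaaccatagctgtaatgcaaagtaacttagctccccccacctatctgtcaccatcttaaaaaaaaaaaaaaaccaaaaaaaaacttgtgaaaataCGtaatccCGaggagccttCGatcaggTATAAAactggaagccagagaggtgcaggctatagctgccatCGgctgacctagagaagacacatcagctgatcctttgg
Il5, chr11:53720544-53720843, plus strand: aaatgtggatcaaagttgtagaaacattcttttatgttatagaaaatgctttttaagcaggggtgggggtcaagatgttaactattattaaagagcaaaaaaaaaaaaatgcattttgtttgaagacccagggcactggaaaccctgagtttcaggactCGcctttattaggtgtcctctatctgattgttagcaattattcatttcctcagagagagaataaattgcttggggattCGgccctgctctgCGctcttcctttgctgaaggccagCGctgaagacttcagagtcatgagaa
Il13, chr11:53634653-53634952, minus strand: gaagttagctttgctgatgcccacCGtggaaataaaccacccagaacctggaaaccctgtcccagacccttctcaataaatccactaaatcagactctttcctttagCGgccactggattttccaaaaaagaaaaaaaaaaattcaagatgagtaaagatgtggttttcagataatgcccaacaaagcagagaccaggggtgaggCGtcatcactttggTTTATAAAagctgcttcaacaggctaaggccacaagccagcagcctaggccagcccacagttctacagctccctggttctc

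The promoters of Ankrd11 and Foxo1 held 36 and 31 CG dinucleotides, whereas those of Ifng, Il5 and Il13 held 7, 4 and 3. Il7r, with 1 CG, was fully covered all the same. TATAAA stood in the promoters of Ifng and Il13, in the latter as 2 overlapping matches on the 2 strands.

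The same contrast held over the gene classes, whose promoter letters the classes did not use. A promoter sequence within 1000 bases of the annotated gene start was found for 15532 of 21627 genes. The median number of CG dinucleotides per 300 bases was 20 in 936 promoters of fully covered genes, 22 in 6276 of partly covered and 4 in 7447 of never covered genes, against 14 over all 15532. Fewer than 5 CG stood in 8.97% of promoters of fully covered, 6.12% of partly covered and 51.4% of never covered genes. TATAAA on either strand was found in 8.33%, 6.02% and 21.6%, against 13.8% of all promoters. CCGGAAG on either strand, a core bound by ETS factors that contains a CG itself, was found in 23.6%, 20.4% and 3.48%, against 12.2% of all; this motif was chosen after the data had been seen.

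Long genes were also described on their own. Among genes of 20 kb or more the median number of CG was 27 in 119 fully covered, 23 in 3905 partly covered and 10 in 2426 never covered genes. TATAAA was found in 7.56%, 5.20% and 12.7%, and CCGGAAG in 19.3%, 19.2% and 3.83%. In each of these measures the never covered genes lay farther from the partly covered genes than the fully covered genes did. A match is a description of these letters only.

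Small peaks were frequent and held few of the covered bases, and wide peaks were few and held many. The lists held 38026, 40455 and 40092 peaks that covered 279, 276 and 285 Mb. Peaks under 1 kb made up 38.5% ± 1.73 of the peaks and 2.63% ± 0.167 of the covered bases (SD, n = 3 lists). When peaks with a −log10 q under 5 were left out, a mean of 10041 peaks per list remained in place of 39524, and the mean of the median widths was 13787 in place of 1616 bp. Among all peaks, the 198 ± 9.61 peaks of 100 kb or more, 0.501% ± 0.0413 of all, held 9.89% ± 0.493 of the covered bases. Ranked by width, peaks of at least 26.5 ± 0.447 kb held 50% of the covered bases. The widest class by bases was 20 to 50 kb, with 30.1% ± 0.440.

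**Figure D1:**
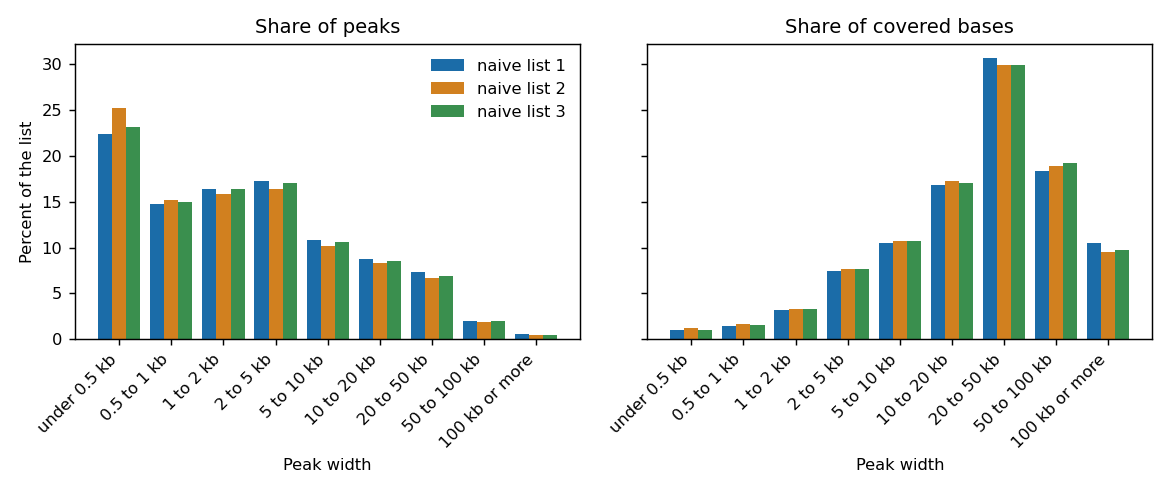
Width of the H3K79me2 peaks of naive cells. Bars give, for each of the 3 naive lists, the percent of peaks (left) and of covered bases (right) in each width class; peaks under 0.5 kb are the most frequent class, and peaks of 20 to 50 kb hold the most bases.

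Wide peaks recurred in the other lists and small ones often did not. Of peaks under 0.5 kb, 27.7% ± 5.53 met peaks in both other lists by at least 1 base and 39.8% ± 7.15 met none. This share in both rose to 54.7% ± 7.49 at 0.5 to 1 kb, 78.5% ± 5.90 at 1 to 2 kb and 97.4% ± 1.06 at 2 to 5 kb, and it was 100% in every class from 10 kb. A wide peak has more bases by which to meet another. The authors' fold enrichment also differed by width, with a median of 1.97 ± 0.0549 in peaks under 0.5 kb, 3.91 ± 0.104 at 10 to 20 kb and 6.39 ± 0.350 at 100 kb or more. Small peaks were therefore the weakest and the least shared. By bases, 250.8 Mb lay in all 3 lists, 27.9 Mb in 2 and 31.8 Mb in 1, so that 80.8% of the 310.4 Mb covered in any list was common to all.

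The widest peak of every list lay on Foxp1 (chr6:98925342-99522746, minus strand), a forkhead factor that keeps T cells quiescent. It was 583 kb wide in list 1, 586 kb in list 2 and 455 kb in list 3. Bach2, a repressor of effector fates, carried the next widest peak in lists 2 and 3 (354 and 357 kb) and the third widest in list 1 (357 kb). These peaks ran over 1 protein-coding gene each.

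Domains shared by all 3 lists gave the same picture. Of 35247 unbroken stretches covered in every list, 6540 were at least 10 kb and 161 at least 100 kb long. Of these 161, 128 touched 1 protein-coding gene only and 4 touched none. The 10 longest lay on Foxp1 (453.8 kb), Bach2 (354 kb), Aff3, of the AFF family of elongation scaffolds (336 kb), Tox, a factor of CD4 T cell development (325 kb), Foxn3 with Gm51999 (309 kb), the RNA-binding protein gene Msi2 (262 kb), the kinase gene Tnik (252 kb), Reep3 and the histone demethylase homologue Jmjd1c together (213 kb), Prkch, a protein kinase C gene, with LOC115488016 (213 kb), and Ankrd11 with Spg7 (209.8 kb).

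Over the 21627 protein-coding genes of chromosomes 1 to 19 and X, 1204 (5.57%) were fully covered, 8757 (40.5%) partly covered and 10451 (48.3%) never covered in all 3 lists. The class differed between lists for the other 1215 (5.62%). In single lists, 1573, 1503 and 1574 genes were fully covered and 10709, 10744 and 10666 were not covered. Of the 1215, 718 were at 100% in at least 1 list, 499 at 0% in at least 1 list, and 2 of them were both. Over 90% was covered in every list for 465 of the 1215, and under 10% for 406. Just short of full coverage in every list were 95 genes with at least 99%, and 623 with at least 95%.

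Classes differed with gene length. The median length was 5.77 kb for fully covered, 28.8 kb for partly covered and 10.8 kb for never covered genes. Full coverage was most frequent at 2 to 5 kb, in 378 of 2409 genes (15.7%), and fell away to 2 of 1437 genes (0.139%) at 100 to 200 kb and none of 989 over 200 kb. Genes under 2 kb were never covered in 88.8% of cases. The lowest share of never covered genes, 35.6%, was found at 20 to 50 and at 50 to 100 kb, and it was 56.7% over 200 kb. Of the fully covered genes 359 (29.8%) overlapped another protein-coding gene, against 11.5% of never covered and 17.8% of all genes; peaks cannot be assigned to 1 of 2 overlapping genes.

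**Figure D2:**
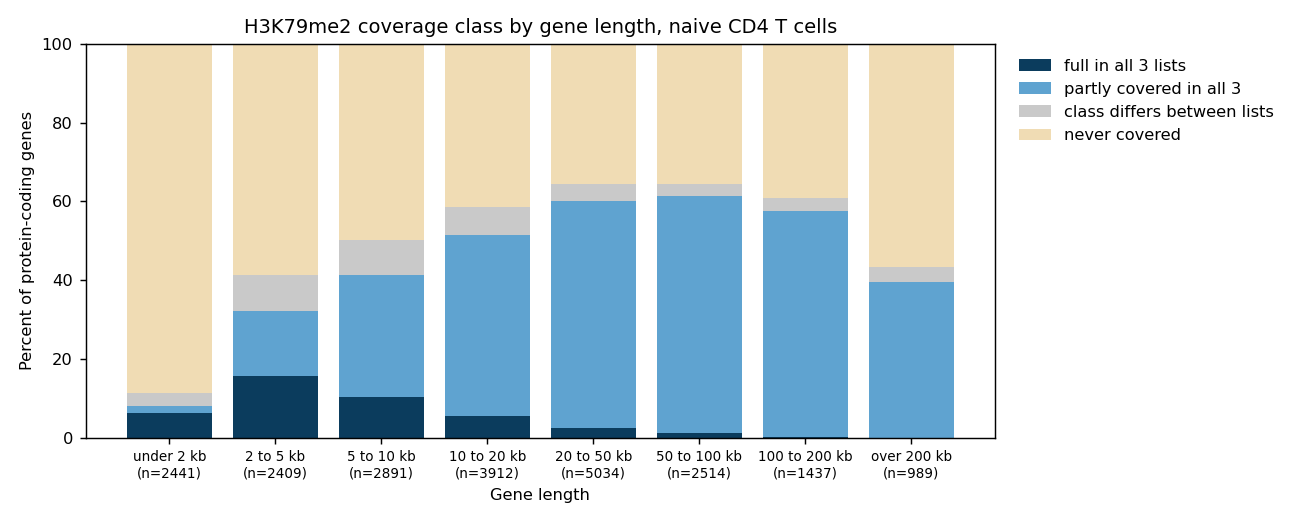
Coverage class by gene length. Stacked bars give the percent of the protein-coding genes of each length class that were fully, partly or never covered in all 3 naive lists or changed class between lists; full coverage peaks at 15.7% in genes of 2 to 5 kb and is absent over 200 kb.

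Most fully covered genes shared their domain with neighbours. Of the 1204, 309 lay in a shared domain that touched no other protein-coding gene and 895 in one that did. As 359 of the 1204 overlap another protein-coding gene, their domain touches it by definition. No such count was made for the other classes or for all genes, so this is not read as particular to fully covered genes. The domain with most whole genes inside was that of the Gimap genes, GTPases that support lymphocyte survival: 8 genes lay within 133 kb (chr6:48643003-48776007), each at 100% in every list. A 61.0 kb domain on chr19:4141753-4202743 held 7 genes, among them Coro1b, of actin turnover, Ptprcap, which encodes a partner of CD45, and Ppp1ca, a phosphatase subunit. Short genes in such stretches were covered along with the whole stretch.

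By chromosome, full coverage ranged from 0.621% of the genes on X to 10.8% on chromosome 19. Chromosomes 17 and 11 followed at 9.63% and 9.07%. Never covered genes made up 66.9% of the genes of X and 56.8% of chromosome 7, and 40.3% of chromosome 11. The share of X was thus at the far end in both classes; this was not tested.

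The mark sat towards the start of partly covered genes. In 3583 partly covered genes of at least 20 kb that overlapped no other gene and had a known strand, the first 10% of the gene body was covered by 77.6% ± 0.313 on average and the last 10% by 19.6% ± 0.844 (SD, n = 3 lists). When peaks with a −log10 q under 5 were left out, the last 10% was covered by 12.9%. Coverage declined at each step between them, with 58.9% ± 0.825 in the fifth and 46.6% ± 0.875 in the seventh part of 10. The 3 lists lay within 1.82 points of each other in every part.

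Around the start, the share of covered genes climbed from well upstream into the gene. At the annotated start, 52.6% ± 0.790 of these genes were covered, at 1 kb into the gene 76.7% ± 0.335 and at 3 kb 80.9% ± 0.140, the plateau. At 20 kb into the gene it was 55.0% ± 0.961. Upstream, 41.8% ± 0.966 were covered at 1 kb and 23.4% ± 0.560 at 5 kb before the start. The 106 fully covered genes of this size were covered at 90.6% ± 0.943 at 1 kb and 56.0% ± 1.44 at 5 kb before the start. At 10 kb before the start, 20.2% ± 0.592 of the partly covered and 42.5% ± 0.943 of the fully covered genes were still covered. Genes with close neighbours were not left out here, so cover before the start may belong to another gene. This was not tested.

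**Figure D3:**
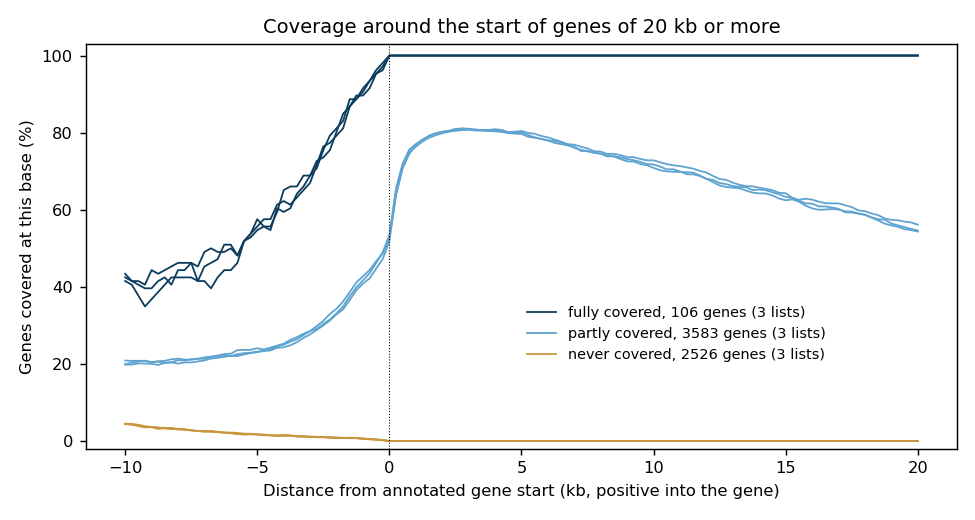
Coverage around the annotated start of genes of at least 20 kb. Lines give, for each of the 3 naive lists, the percent of genes covered at each distance from the start (kb, positive into the gene); the partly covered genes climb from 52.6% at the start to 80.9% at 3 kb and decline further in, and the fully and never covered genes are at 100 and 0% inside the gene by definition.

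Of 4735 partly covered genes of at least 10 kb with a known strand and no overlap with another gene, 2548 (53.8%) had covered bases in the first 2 kb and not in the last 2 kb in all 3 lists. Both ends were covered in 844 (17.8%), the last alone in 176 (3.72%) and neither in 359 (7.58%). The pattern differed between lists in the others. A domain at the start was thus the most frequent form, and a domain at the end alone was rare.

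The domain at 2 kb into the gene had a longer median reach in longer genes, up to the class of 100 to 200 kb. There were 2087 genes of 20 to 50 kb with a covered base in some list, a known strand and no overlap. Of these, 1689 were covered at 2 kb from the start in all lists. In the 1689 genes, the domain over that point ended a median of 16.5 ± 0.453 kb from the start. It reached 29.8 ± 0.663 kb in 810 of 1042 genes of 50 to 100 kb. In 366 of 560 genes of 100 to 200 kb it reached 39.0 ± 1.16 kb, and in 129 of 259 over 200 kb 38.5 ± 1.73 kb. As a share of the gene, this was 55.0% ± 1.64, 44.6% ± 0.592, 30.6% ± 0.877 and 13.6% ± 0.669. Genes not covered at 2 kb from the start in all lists are left out, and they were a larger share of the longer classes. The medians of the last 2 length classes lay close in kb, but the SDs are over lists and not over genes. Whether these classes differ was not tested. In this measure a gap of any size past 2 kb from the start ends the stretch. Uncovered bases before 2 kb do not shorten it.

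The domains of fully covered genes reach both gene ends by definition, and their length past the ends was measured. In 75 fully covered genes with no other protein-coding gene within 20 kb, the domain began a median of 3.71 ± 0.430 kb before the start and ended 3.89 ± 0.360 kb past the end. It ran more than 1 kb past the end in 89.8% ± 4.29 of them and more than 1 kb before the start in 83.6% ± 4.07. These SDs are over lists and not over genes, and whether the 2 ends differ was not tested.

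Over genes covered by at least 50% in all 3 lists, 6824 or 31.6% of all, the median covered length was 14.9, 14.7 and 15.1 kb. In the partly covered genes it was 12.9, 12.8 and 13.3 kb, or 59.3, 59.0 and 60.9% of the gene. At least 100 kb was covered in all 3 lists in 378 genes, of which 2 were full, Ankrd11 and Elf1.

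The 15 genes with the longest covered length had 330 to 642 kb covered on average. Inpp4b, which encodes a phosphatase of phosphoinositides, was covered over 638, 627 and 661 kb of its 792 kb in lists 1, 2 and 3. Foxp1 was covered over 589, 588 and 588 kb of 597 kb. Lpp, a LIM protein of adhesion sites, was covered over 491, 475 and 509 kb. List 2 was lowest in Inpp4b and Lpp and list 3 highest, whereas Foxp1 varied by an SD of 0.660 kb.

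Regulators of the cytoskeletal GTPase Rac were among them. Arhgap15, which turns Rac off, was covered over 486 ± 11.8 kb, and Elmo1, which helps to activate it, over 449.6 ± 3.67 kb, 86.8% ± 0.709 of the gene. Transcription and RNA factors were Aff3 (371 ± 3.05 kb), Zbtb20 (369 ± 22.6 kb), Foxn3 (369 ± 0.986 kb), Msi2 (361 ± 2.50 kb) and Bach2 (346 ± 0.423 kb). The endosomal exchanger gene Slc9a9 (419 ± 7.90 kb), the exocyst gene Exoc4 (365 ± 22.7 kb), the nuclease gene Snd1 (339.7 ± 7.45 kb), the calmodulin kinase gene Camk1d (333 ± 0.738 kb) and the utrophin gene Utrn (329.7 ± 11.5 kb) made up the rest (SD, n = 3 lists each). Inpp4b, Zbtb20, Foxn3 and Snd1 overlap other genes.

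**Figure D4:**
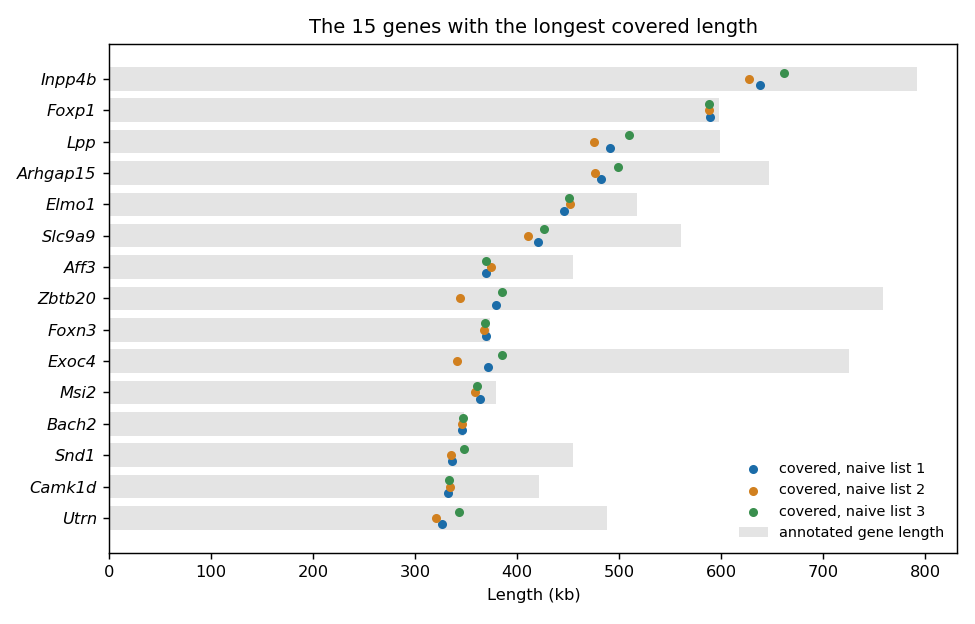
The 15 genes with the longest covered length. Grey bars give the annotated gene length and points the covered length (kb) in each naive list; points of Foxp1, Foxn3, Msi2 and Bach2 reach nearly the end of the bar, and those of Zbtb20 and Exoc4 lie near its middle.

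The spread of the cover along the gene differed among these 15 genes. Bach2, Foxp1, Foxn3 and Msi2 were covered at 99.5% ± 0.122, 98.5% ± 0.110, 98.6% ± 0.264 and 95.1% ± 0.659, and each 10% of the gene before the last was covered by at least 95.8%, whereas the last was at 95.1, 85.1, 90.7 and 55.1%. Zbtb20 and Exoc4, at 48.7% ± 2.98 and 50.4% ± 3.13, were covered by 74.4 and 91.3% in their first 10% and by 21.2 and 3.32% in the last. Others were uneven: Utrn was covered by 36.5% in its first 10% and by 100% in the seventh part of 10, Camk1d by 63.7% in the fourth part and 16.9% in the last, and Inpp4b by 83.3% in the first and 50.8% in the last. The covered length also rested on weaker peaks in some genes. When peaks with a −log10 q under 5 were left out, Exoc4 kept 152 kb, Zbtb20 155 kb, Slc9a9 165 kb, Snd1 149 kb, Inpp4b 312 kb, Arhgap15 257 kb, Lpp 263 kb and Utrn 216 kb, each less than the full lists by over 1.5 times, whereas Foxp1 kept 583 kb and Bach2 346 kb.

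The 15 longest genes that were full in every list were 78.6 to 159 kb long. Ankrd11, a chromatin cofactor gene (chr8:122883321-123042284), was full over 159 kb, and Elf1, an ETS factor gene, over 101 kb. Next came Tet3, of DNA demethylation (94.8 kb), Ccnd3, the D cyclin gene of lymphocytes (94.6 kb), Rai1 (94.3 kb), and Bcl11b, a factor that fixes T cell identity (chr12:107910403-108004145, 93.7 kb). The others were Susd6, Znrf1, Ikzf1, the Ikaros factor of lymphocytes (88.0 kb), Tgfbr2, a receptor chain for TGF-beta, which restrains T cells (87.7 kb), Sppl3, Ago2, of microRNA silencing (83.3 kb), Foxo1 (81.8 kb), the nucleoporin gene Nup214 and Ranbp9, between 78.6 and 90.3 kb for those without a value. Every value is 100% in lists 1, 2 and 3, so there is no spread to give. Elf1, Ccnd3, Rai1, Znrf1, Nup214 and Ranbp9 overlap other genes.

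At the other end, the 10 longest never covered genes were 1555 to 2390 kb long. Dmd, the dystrophin gene, had no covered base in 2390 kb, and Ptprd, Cntnap2, Lsamp, Lrp1b, Macrod2, Csmd1, Nrxn3, Ctnna3 and Robo2 had none in 1555 to 2271 kb each. Cntnap2, Nrxn3 and Robo2 encode adhesion or guidance proteins of neurons. Dmd, Lsamp, Macrod2, Csmd1 and Ctnna3 overlap other genes.

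Some giants carried a domain over a small part only. Pde4d, a phosphodiesterase of cAMP, was covered over 97.0 ± 3.39 kb of 1302 kb, all of it in the last 20% of the gene, with 59.2% of the last 10% covered. Rora, a nuclear receptor gene, was covered over 67.1 ± 1.32 kb of 735 kb, with 53.2% of its last 10% and none of its first 50%. Celf2, an RNA-binding protein gene, had 180 ± 3.56 kb of 857 kb, with 100% of the ninth part of 10 covered. In these 3 genes the domain lay away from the annotated outermost start.

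Camta1 and Diaph2 had it at the start. Camta1 was covered by 90.2% in its first 10%, 77.0 ± 1.53 kb in all, and Diaph2 by 62.1%, 49.4 ± 2.74 kb in all. Fhit (29.5 ± 3.61 kb), Agbl4 (29.7 ± 1.27 kb) and Astn2 (11.98 ± 0.317 kb) were covered in an inner part and at neither end. Wwox and Arhgap26, with no strand in the tables, were covered over 64.0 ± 8.03 and 102 ± 0.943 kb. Agbl4, Astn2, Camta1 and Arhgap26 overlap other genes, so part of this cover may belong to the other gene.

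The cells were checked against markers of T cells and of other cells. Of 10 markers of CD4 T cells 9 were in the gene table. All 9 were covered by at least 50% in every list, against 31.6% of all genes. Their median was 100%, against 1.06% over all genes. Cd3e, Cd3g, Thy1, Lat and Lck were full, against 5.57% of all genes, and Cd4 was the lowest at 83.0, 85.0 and 82.5%. All 5 naive markers were covered by at least 90% in every list, against 11.6% of all genes, and Ccr7 and Il7r were full. Cd44, by whose absence on the surface the cells were sorted, was partly covered at 60.1, 61.4 and 55.9%. Of 5 markers of activated or memory T cells, 2 (40%) were covered by at least 50% in every list, against 31.6% of all genes. These were Cd44 and Cd69, and Cd69 was covered by at least 90% in every list. Il2ra was partly covered. Gzmb and Ifng were never covered, 40% of the 5 against 48.3% of all genes.

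Markers of other cells are read here against the 48.3% of all genes that were never covered. All 4 erythroid markers and 7 of 8 myeloid markers were never covered, Lyz2, Csf1r, Cd14, Adgre1, Mpo, S100a8 and Fcgr3 among the latter, and Itgam reached 7.22, 10.5 and 10.3%. Of 8 B cell markers 5 (62.5%) were never covered, Ms4a1, Pax5, Blk and Cd22 among them, and Ebf1 was at 0.318, 0.320 and 0.294%. Cd79a was full, in a domain of 29.2 kb that also touched Rps19 and Arhgef1. Cd79b was at 43.0, 84.0 and 36.0%, in a domain of 1.47 kb that touched no other gene. Among 4 NK markers Ncr1 and Klrb1c were never covered, a share near that of all genes, Klrd1 was at 20.9, 17.0 and 19.98%, and Tyrobp was full in a domain of 21.9 kb with Hcst and Nfkbid.

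Both CD8 markers were full in every list, against 5.57% of all genes. Each lay in a domain that touched no other protein-coding gene, of 16.5 kb on Cd8a and 18.9 kb on Cd8b1. In a bulk library, a share of CD8 T cells among those sorted and a mark on these genes in CD4 T cells cannot be told apart, and likewise fewer cells with a mark and less mark per cell. The part of other cells in the other results was not tested. Of 10 markers of non-haematopoietic tissues 8 were never covered, against 48.3% of all genes. Cdh1 was at 0, 0.544 and 0.481%, and Afp at 9.62, 7.42 and 9.19%.

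Of 18 T identity transcription factors, 17 were covered by at least 50% and 14 by at least 90% in every list, against 31.6% and 11.6% of all genes. Bcl11b, Ikzf1 and Zbtb7b, the factor of the CD4 lineage, were full. Satb1, a chromatin organiser, was at 99.7, 99.8 and 99.8%, Lef1, a partner of TCF1, at 98.9, 98.9 and 98.9%, Runx1 at 98.1, 97.8 and 97.6%, and Ets1 at 98.5, 99.3 and 99.2%. Under 90% in at least 1 list were Runx3, of the CD8 and Th1 programmes, at 40.3, 38.6 and 42.0%, Gata3 at 74.6, 76.7 and 74.7%, Tcf3 at 80.9, 85.7 and 83.3% and Gfi1 at 97.6, 98.2 and 85.8%.

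All 30 genes of the T cell receptor and its signalling were covered by at least 50% in every list and 22 by at least 90%, with a median of 96.9% against 1.06% over all genes. Cd28, the main costimulatory receptor, Cd6, Lck and Lat were full. The long genes followed closely, such as Fyn, a Src kinase, with 193 ± 0.417 kb, Themis, of thymocyte selection, with 203 ± 0.785 kb, Cblb, a brake on signalling, with 164 ± 1.35 kb, and Prkcq, a kinase below the receptor, with 126 ± 0.480 kb. Malt1, a protease of the NF-kB branch, was the lowest at 77.0, 75.7 and 78.7%.

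Of 24 genes of naive homing, survival and quiescence, 10 were full and 18 were covered by at least 90% in every list, against 5.57% and 11.6% of all genes. Full were Ccr7, S1pr1, Il7r, Il4ra, Foxo1, Klf2, Btg1, Btg2, Pik3ip1 and Tgfbr2, among them both receptors for entry into and exit from lymph nodes (Ccr7 and S1pr1). Bcl2, a survival gene of 176 kb, was at 99.3, 100 and 99.7%. The mTOR inhibitors stood apart, Tsc1 at 35.2, 33.6 and 34.7% and Tsc2, which overlaps another gene, at 15.04, 14.7 and 18.1%, and Slfn2 was never covered, with the nearest peak 14.7 to 14.8 kb away.

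**Figure D5:**
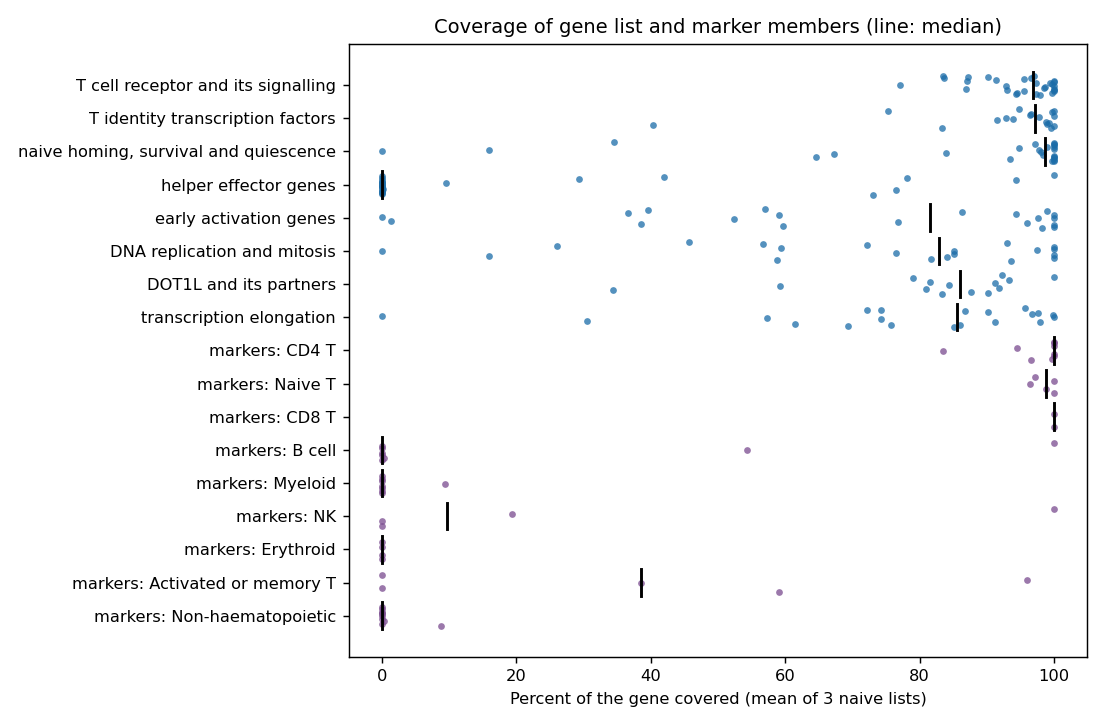
Percent of each gene covered, as the mean of the 3 naive lists, for members of 8 gene lists (blue) and 9 marker lists (purple). Each point is a gene and each line the median of its list; lists of T cell identity, receptor signalling and naive genes lie near 100% and the medians of helper effector genes and of B cell, myeloid and erythroid markers are at 0%.

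Of 26 helper effector genes 17 (65.4%) were never covered, against 48.3% of all genes. Covered by at least 50% in every list were 5 (19.2%), against 31.6% of all genes. The median length of the 26 genes was 8.04 kb. Of all genes, 58.7% were never covered at 2 to 5 kb and 49.7% at 5 to 10 kb. The part of gene length in the share of effector genes was not tested. Never covered were Tbx21 and Eomes, the T-box factors, the cytokine genes Ifng, Il4, Il5, Il13, Il10, Il17a, Il17f and Il22, and Gzmb among others. Pdcd1, the inhibitory receptor PD-1, was full. Foxp3, the factor of regulatory T cells, overlaps another gene and was at 100, 89.2 and 94.0%, Prf1, the perforin gene, at 75.9, 76.3 and 77.3%, and Bcl6 at 76.3, 74.3 and 68.7%. Il21 was at 36.1, 47.9 and 41.9% and Il12rb2 at 28.6, 27.8 and 31.5%.

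Of 20 early activation genes 14 (70.0%) were covered by at least 50% in every list, against 31.6% of all genes. Myc, Junb, Tnf and Tnfrsf4, the OX40 gene, which overlaps another gene, were full, and Egr1 was at 100, 92.7 and 100%. Il2 was never covered, and Fosb was at 0, 0 and 3.85%. Il2ra was at 38.1, 37.8 and 39.5% and Tnfrsf9 at 31.4, 40.3 and 37.9%. Among the immediate-early genes, Junb and Fosb thus lay at opposite ends.

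Of 20 genes of DNA replication and mitosis 16 (80.0%) were covered by at least 50% in every list, against 31.6% of all genes. Mki67, the Ki-67 gene, Top2a, which encodes topoisomerase II, and Aurkb, a mitotic kinase, were full. Rrm2, the inducible subunit of ribonucleotide reductase, was never covered, with no peak within 47.96 kb in any list. Bub1 was at 14.4, 18.1 and 15.1%, Tyms at 25.3, 27.5 and 25.4% and Cenpf at 45.1, 46.2 and 45.8%. Mcm5 varied between lists, at 51.3, 53.2 and 71.7%, with list 3 the highest.

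The genes that make and guide the mark carried it. Dot1l was full over 40.4 kb, and its partners Mllt1, Mllt3, Mllt6 and Mllt10 were covered by 90.4 to 96.5% in every list. Of the 14 genes of DOT1L and its partners 13 were covered by at least 50%, against 31.6% of all genes, and Rnf20, a ligase for ubiquitin on histone H2B, was the exception at 32.4, 40.7 and 30.2%. Of 20 elongation genes 18 were covered by at least 50%, again against 31.6%. Supt4a was full, Setd2, the H3K36 methyltransferase gene, was at 96.4, 97.1 and 96.7%, and Ell2 was never covered.

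Families used in nearly every cell are read against all genes, of which 5.57% were full, 31.6% covered by at least 50% in every list and 48.3% never covered. Of 84 cytosolic ribosomal protein genes 28 were full and 79 covered by at least 50% in every list, with a median of 93.5%. Their median length was 3.18 kb, and of all genes of 2 to 5 kb 15.7% were full. All 13 genes of RNA polymerase II subunits, 35 of 37 of respiratory complex I, 19 of 20 of splicing factor 3 and SR proteins, 32 of 39 of the proteasome, 59 of 78 of the mitochondrial ribosome and 45 of 55 of translation initiation reached 50%. Over these 7 families 12 of 326 genes were never covered. Most of the 12 are additional copies or tissue forms, such as Rpl3l of muscle, Rpl10l and Psma8 of testis and Psmb11 of the thymic cortex.

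Over olfactory, vomeronasal and taste receptors, keratins, Hox genes and beta-defensins, 1615 of 1631 genes were never covered, 1099 of 1106 olfactory receptors among them, against 48.3% of all genes. The median olfactory receptor gene was 0.950 kb long, and of all genes under 2 kb 88.8% were never covered. That length class itself holds many of these receptor genes, so it is not a separate background for them. Whether gene length accounts for their lack of cover was not tested. Olfr524 was full and overlaps another gene. Olfr1396, at 97.8, 100 and 96.9%, and Olfr266, at 70.1, 73.7 and 81.7%, overlap no other protein-coding gene. Krt222, named as a keratin gene, was at 28.8, 24.6 and 30.1%.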

How the data were processed

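H3K79me2 was mapped by ChIP-seq in naive CD4 T cells, 3 libraries. The submitters' processing notes name the build mm10 and the tools MACS2, Bowtie2, SAMtools and Picard, without version or settings. Whether inputs entered peak calling is not given in the sources used here. In the broad peak list that the authors deposited for each library, their peak caller gave every peak a score, a fold enrichment as a ratio, and −log10 p and −log10 q values, all belonging to the peak within its own list. Starts and ends were used throughout, fold to describe width classes and −log10 q to filter; the score was not used. A more deeply sequenced library would yield more peaks, and the depth is unknown.

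Peaks on chromosomes 1 to 19 and X were merged within a list (Python 3.11.15, numpy 2.4.6, pandas 2.3.3) and set against 21627 protein-coding genes of RefSeq on GRCm38.p6. Strand and promoters came from a RefSeq promoter table, which matched 17273 genes. Coordinates are 1-based. No test was made; errors are SD over 3 lists. The coverage code was tested on simulated intervals. Members and lists were chosen with earlier results of these data known. Named were the 15 genes with the longest cover, the 15 longest full, 10 longest never covered and 10 partly covered genes with most uncovered bases (at least 10 kb covered), the 10 widest shared domains, the 5 genes with the largest SD, and members of 8 gene lists, 9 marker lists and 14 families. Trac was not in the gene table used, and some members of the lists are not reported here by name. The CCGGAAG motif and the measures of ends, reach, extension and nearest peak were added after the data had been seen. Alternatives were a −log10 q of at least 5, joining peaks within 1 kb, peaks of at least 1 kb, genes without overlap, limits of 95% and 1%, and each list left out.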

Additional observations from a re-analysis of the deposited data

How the results depend on the processing

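No paired analysis was possible because only naive libraries were described and no value comes from a test. The counts of partly and never covered genes stayed within 1.5 times under all 8 alternatives. With full from 95% and never under 1%, 1827 genes were full, the median partly covered gene had 56.4%, the first and last 10% of the gene were at 78.1% and 14.99%, and the median CG number of full genes was 22. With a −log10 q of at least 5 the lists kept a mean of 10041 peaks of median 13787 bp and 221.8 Mb, 205 Mb were common, marked genes had a median of 13.3 kb and partly covered genes 57.3%, the first and last 10% were at 84.4% and 12.9%, and never covered genes had a median of 5 CG. Joining peaks gave a median width of 1936 bp, 285 Mb, 257 Mb common, 15.1 kb per marked gene and 21 CG in full genes. Peaks of at least 1 kb numbered 24295 with a median of 4341 bp, 273 Mb and 246 Mb common, and the first 10% was at 80.4%. Genes without overlap gave 15.96 kb and 61.4%. Leaving out a list gave 258 to 262 Mb common to the remaining 2, 801 to 820 genes of changing class, 14.7 to 14.8 kb per marked gene and 77.0 to 77.2% in the first 10%. Among the medians of the 8 gene lists 7 were lower at a −log10 q of at least 5, by a factor of 0.801 at the lowest, and so were all 15 genes with the longest cover. Where no cause follows from the setting itself, the cause was not tested.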

Other observations

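Among the 12 never covered genes of the widely used families, 4 encode subunits used in most tissues: Psma7 and Psmc5 of the proteasome, Ndufa6 of respiratory complex I and Mrpl43 of the mitochondrial ribosome. They were picked out after their values were seen. The nearest peak lay 10.7, 10.7 and 10.8 kb from Psma7 in lists 1, 2 and 3, 12.2, 12.2 and 12.2 kb from Ndufa6, 1.31, 1.28 and 1.33 kb from Psmc5, and 0.159, 0.136 and 0.120 kb from Mrpl43, which overlaps another gene. Ell2 was bare over 64.9 kb, with the nearest peak at 67.3, 67.2 and 51.4 kb, and Il2 had none within 50.9, 69.9 and 50.9 kb.

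The 5 genes with the largest SD between lists were all under 1.4 kb long. 4930524J08Rik was at 100, 100 and 0%, Vpreb1, of the pre-B cell receptor, at 90.1, 98.5 and 0%, Tmem256 at 0, 24.8 and 100%, Msmp at 0, 90.2 and 80.5% and Insl3 at 94.4, 71.9 and 1.28%. List 3 was the lowest in 3 of these genes and the highest in Tmem256, and list 1 was the lowest in Msmp. 4930524J08Rik, Msmp and Insl3 overlap other genes.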
